A study of Mus musculus with 9 samples.

Results

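The 10 genes followed here belong to the cystine, glutathione and NRF2 defence against oxidation and ferroptosis, and were read in sorted lung neutrophils. They are *Slc7a11*, *Gclc*, *Gclm*, *Gsr*, *Gpx4*, *Nfe2l2*, *Hmox1*, *Txnrd1*, *Srxn1* and *Acod1*. They were chosen by symbol, partly because *Slc7a11* was among the larger increases in Ly6g-low neutrophils, and make up 10 of 22064 genes listed, of which 18325 had values. All 10 were among the 14108 genes that passed the filter on low counts and were tested. Bulk RNA-seq covered 3 libraries from each of 3 groups of neutrophils sorted from lungs of female BALB/c mice. The Ly6Ghi group (here macrometastatic Ly6g-high) and the Ly6Glow group (macrometastatic Ly6g-low) came from mice at the MACRO stage, in which 4T1-LM3 cells, a lung-metastatic line derived from 4T1 mouse mammary carcinoma, had been injected into the mammary fat pad. The NL group (normal lung Ly6g-high) came from mice for which the labels name no tumor. The labels give no age, no genetic change and no drug for any group, and neither they nor the study's methods say whether a library held cells of a single mouse or of pooled mice. P-values therefore measure the spread between these libraries, which may be technical. Ly6g-high and Ly6g-low are ranges of 1 surface protein on CD45+ cells, split at a boundary set by the sort. In bulk RNA, fewer cells of a type and less RNA per cell cannot be told apart.

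Glutathione is a small thiol that keeps cells reduced. Its scarce building block, cysteine, enters many cells as cystine through the exchanger xCT, whose light chain is the product of *Slc7a11*. Glutamate-cysteine ligase, made of the catalytic subunit GCLC and the modifier subunit GCLM, performs the rate-limiting step of its synthesis, glutathione reductase (*Gsr*) restores it after oxidation, and GPX4 spends it to detoxify lipid hydroperoxides, whose build-up kills cells by ferroptosis. NRF2, encoded by *Nfe2l2*, is held low by KEAP1 and, when released by oxidants or electrophiles, binds antioxidant response elements beside many of these genes. *Acod1* makes itaconate, a metabolite of activated myeloid cells that can modify KEAP1. Neutrophils generate oxidants in large amounts and are short-lived cells.

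Library totals ran from 15267177 to 17841807 estimated counts, and the members had between 184 and 55053 counts in a library. Levels are given as CPM, a gene's counts per 1000000 of the library total after adjustment by TMM (factors 0.803 to 1.32), and genes are compared with each other only as FPKM, which also corrects for transcript length. *Ly6g* mRNA lay between 361 and 380.1 CPM in macrometastatic Ly6g-high, 385 and 403 CPM in macrometastatic Ly6g-low and 118 and 120.2 CPM in normal lung libraries. It was thus not lower in the Ly6g-low gate on this scale, while on FPKM it was 366 ± 7.92 there and 409 ± 11.4 in macrometastatic Ly6g-high (SD, n = 3). Summed levels of 17 neutrophil markers were 110598 to 113167 CPM, 99164 to 101078 CPM and 29377 to 29791 CPM in the same order. Between the macrometastatic gates single genes of this list went both ways. *Ngp* and *Ltf* had 17196 and 11444 CPM on average in Ly6g-high against 5901 and 3052 CPM in Ly6g-low. *Csf3r*, *Cxcr2* and *Trem1* had 3745, 1716 and 1412 CPM in Ly6g-high against 6928, 2713 and 2910 CPM in Ly6g-low. *S100a8* and *Csf3r*, which mark neutrophils, were abundant everywhere, with *S100a8* lowest in normal lung at 4478 ± 168 CPM. Most lists of markers of other cells were highest in normal lung libraries. There, 16 alveolar macrophage markers summed to 2975 to 3025 CPM (1813 to 1869 in macrometastatic Ly6g-high and 408 to 428 in Ly6g-low), 15 monocyte and macrophage markers to 1713 to 1788 CPM (933 to 946 and 837 to 865) and 12 epithelial or tumor markers to 1395 to 1529 CPM (129 to 136 and 132 to 137). Of the alveolar macrophage sums, *Chil3* alone had 964 CPM on average in normal lung, 1274 in macrometastatic Ly6g-high and 277 in Ly6g-low. Endothelial and fibroblast markers (14 genes) summed to 1516 to 1617 CPM in normal lung (197 to 207 and 231 to 243), dissociation stress genes (13) to 6957 to 7748 CPM (8710 to 8814 and 9460 to 9912), and erythroid genes (7 with values) to 10.8 to 14.1 CPM, with sums of at most 0.406 CPM in both macrometastatic groups. T, B and NK cell genes (15 with values) reached 129 to 132 CPM in normal lung, 97.6 to 99.5 in macrometastatic Ly6g-high and 67.1 to 67.8 in Ly6g-low. Dendritic cell genes (10) reached 67.8 to 75.1, 23 to 24.5 and 21 to 23.2 CPM. The 12 eosinophil, basophil and mast cell genes summed to 126 to 129, 223 to 231 and 285 to 288 CPM in that order, of which *Kit* alone had 58.3, 104 and 225 CPM on average. Every other gene of that list had a lower mean in Ly6g-low than in macrometastatic Ly6g-high libraries, among them *Prg2* (0.619 against 29.4 CPM) and *Ccr3* (3.72 against 15.8 CPM). *Krt5* was at 0 in both macrometastatic groups, as were the erythroid genes *Slc4a1*, *Klf1* and *Hba-a2*, and *Cldn4* was at 0 in Ly6g-low. Of the alveolar macrophage markers, 5 of 16 were under 1 CPM in macrometastatic Ly6g-low libraries and 1 of 16 in each Ly6g-high group. Markers of other cells therefore moved with the groups, and their part in the differences of the members and of the other listed genes was not tested. Normal lung replicate 2 stood somewhat apart from the other normal lung libraries, with a chi-square per gene of 5.30 and 4.05 against them, while all other pairs of replicates had values from 1.41 to 2.50. No member's call changed when that library was left out.

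A gene was called where the edgeR adjusted p was at most 0.05 and the absolute log2 fold change exceeded 0.58. Between the gates of the macrometastatic lung, always taken as Ly6g-low relative to Ly6g-high, 6 of the 10 members met this rule as higher in Ly6g-low, 0 as lower and 4 did not meet it. Over all tested genes 25.3% were called, 9.34% as higher and 16.0% as lower. *Slc7a11* in this contrast entered the choice of the members, so their values in it are a description without p-values. For the same reason the count of 6 is no test against the share of all genes. In macrometastatic Ly6g-high over normal lung neutrophils, 2 members were called higher and 4 lower, against 62.8% of all tested genes (26.3% higher and 36.6% lower). In macrometastatic Ly6g-low over normal lung neutrophils, 3 were called higher and 1 lower, against 69.5% of all tested genes (28.6% higher and 40.8% lower). The share of members called against normal lung, 6 of 10 and 4 of 10, was thus near or under that of all genes. The median log2 fold change of the members was 0.85, -0.100 and 0.34 in the 3 comparisons, beside -0.041, -0.088 and -0.16 for all tested genes. The comparisons with normal lung share their 3 control libraries.

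**Figure D1:**
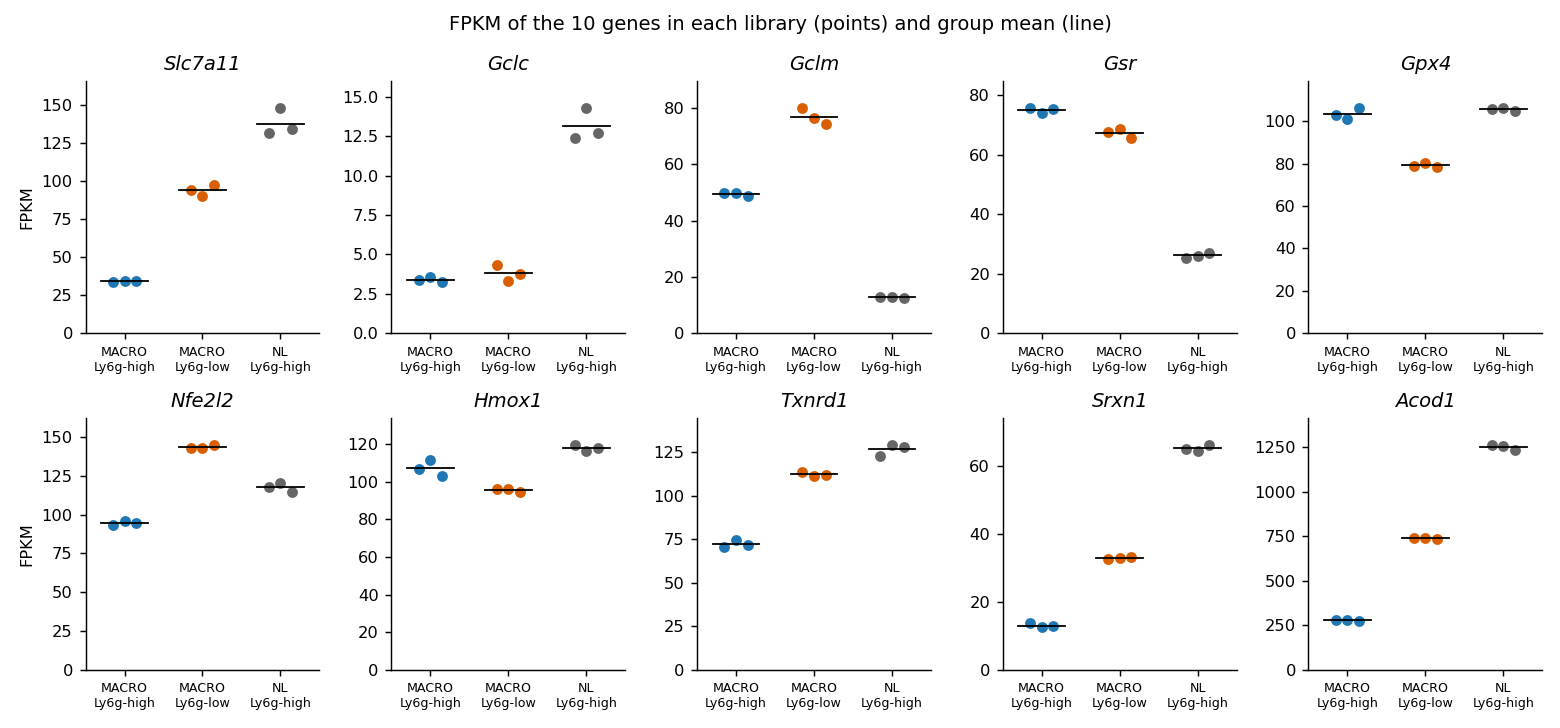
FPKM (vertical axes, each starting at 0) of the 10 genes in each of the 9 libraries; points are libraries, lines the mean of 3, with macrometastatic (MACRO) Ly6g-high in blue, MACRO Ly6g-low in orange and normal lung (NL) Ly6g-high in grey. *Slc7a11*, *Srxn1* and *Acod1* were lowest in MACRO Ly6g-high (34.2, 13 and 278 FPKM on average) and highest in NL (138, 65.2 and 1250.5), whereas *Gclm* and *Gsr* were lowest in NL (12.8 and 26.1).

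*Slc7a11* (NCBI Gene 26570) encodes the cystine-importing light chain of xCT and spans 49892526 to 50443614 on the minus strand of chromosome 3 (mm10). It had 326, 332 and 333 CPM in the macrometastatic Ly6g-high libraries. The macrometastatic Ly6g-low libraries had 1069, 1028 and 1107 CPM, and the normal lung libraries 929, 1025 and 941 CPM. The Ly6g-high libraries of the metastatic lung thus lay far below the other 6, and the other groups were close to each other. The log2 fold change was 1.69 (SE 0.039), or 3.23-fold, between the gates, rank 55 of 14108 from the highest. It was -1.55 (SE 0.039) in macrometastatic Ly6g-high over normal lung and 0.15 (SE 0.037) in macrometastatic Ly6g-low over normal lung. No p-value is given for *Slc7a11*, since these libraries led to its choice. The order of the latter pair of groups depended on the scaling, with 93.9 ± 3.67 FPKM in Ly6g-low and 138 ± 8.93 FPKM in normal lung (SD, n = 3) and a difference of -0.55 on log2(FPKM + 1).

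The promoter window of *Slc7a11* held a pair of matches to the ATF4 response element core TGATGNAA, facing each other, and is shown because *Slc7a11* was the member with the largest difference between the gates. The windows run from 250 bases before to 50 after each RefSeq start of a gene (GRCm38.p6, the build also called mm10), and a gene can have several. They were present for 7 of the 10 members in 12 windows, and were searched on both strands. The stretch lies at chr3:50443633-50443699 on the minus strand, from 86 to 20 bases before the start, with the matches in capitals.
*Slc7a11*: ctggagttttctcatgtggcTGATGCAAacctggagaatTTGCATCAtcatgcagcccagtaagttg
That core occurred in windows of 4.51% of 27025 genes and in no other member with a window. *Slc7a11* also had the G form of the antioxidant response element core, TGAGNNNGC, at 97 to 89 bases before the start, a form found in 19.8% of genes. The ATF4 core and the G form were added after the values of the members were seen, and a match is a description of letters.

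*Slc3a2*, the heavy chain that carries the *Slc7a11* product to the membrane, had 151, 153 and 152 CPM in macrometastatic Ly6g-high libraries, 209, 202 and 192 CPM in Ly6g-low libraries and 296, 277 and 291 CPM in normal lung libraries. The 3 groups did not overlap. It was called lower in macrometastatic Ly6g-high than in normal lung neutrophils, at -0.92 (SE 0.038, edgeR adjusted p = 1.25e-17). Its difference of 0.41 between the gates (edgeR adjusted p = 2.15e-09) and of -0.52 in Ly6g-low over normal lung (edgeR adjusted p = 2.00e-12) stayed under the fold threshold with TMM, and the latter passed it on log2(FPKM + 1), at -1.22.

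Among the enzymes of glutathione synthesis, the subunits of glutamate-cysteine ligase moved in opposite directions from normal to macrometastatic lung. *Gclm* (NCBI Gene 14630, chromosome 3, 122245557 to 122270732, plus strand), the modifier subunit, had 19.7, 19.4 and 19.6 CPM in normal lung libraries, 105, 105 and 102 CPM in macrometastatic Ly6g-high libraries, against 198, 190.1 and 183 CPM in Ly6g-low libraries. It rose by 2.41 (SE 0.049, edgeR adjusted p = 4.98e-24) in macrometastatic Ly6g-high and by 3.28 (SE 0.047, edgeR adjusted p = 6.23e-27) for Ly6g-low over normal lung on the log2 scale, 5.33-fold and 9.72-fold. The latter was the 39th largest increase of 14108 genes. Between the macrometastatic gates *Gclm* was 0.87 (SE 0.040) higher in Ly6g-low.

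*Gclc* (NCBI Gene 14629, chromosome 9, 77754535 to 77794485, plus strand), the catalytic subunit, had 11.3, 12.5 and 11.6 CPM in macrometastatic Ly6g-high libraries, against 17.8, 14 and 15.9 CPM in Ly6g-low libraries. Normal lung libraries had 31.9, 36 and 32.9 CPM. *Gclc* fell by 1.51 on the log2 scale (SE 0.078, edgeR adjusted p = 1.83e-15) in macrometastatic Ly6g-high and by 1.08 (SE 0.078, edgeR adjusted p = 1.50e-12) in Ly6g-low neutrophils from the normal lung level. Its values rest on 184 to 219 counts in the macrometastatic libraries, and the Ly6g-low libraries spread most, with an SD of 11.9% of the mean, the widest of any member. Between the macrometastatic gates *Gclc* was 0.42 (SE 0.096) higher in Ly6g-low, the nearest value below the call threshold, while *Nfe2l2*, at 0.84, was the nearest above it.

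The window of *Gclm* is shown because this gene rose most over normal lung. It held the antioxidant response element core TGACNNNGC, in capitals here on the opposite strand, 134 to 126 bases before the start (chr3:122245403-122245451, plus strand).
*Gclm*: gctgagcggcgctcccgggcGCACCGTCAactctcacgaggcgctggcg
That core was found in 4 of the 7 members with a window (*Gclm*, *Nfe2l2*, *Srxn1* and *Txnrd1*) and in 14.0% of 27025 genes. A gene counted if any of its windows held the core. The 7 members had 12 windows and the 27025 genes had 32851, so such shares are not on equal terms. The match of *Srxn1* lay after the start, and that of *Txnrd1* at a RefSeq start inside the gene.

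*Gsr* (NCBI Gene 14782, chromosome 8, 33652523 to 33698163, plus strand), which reduces oxidized glutathione with NADPH, had 51.4, 51.2 and 54.4 CPM in normal lung libraries, 210.1, 205 and 208 CPM in macrometastatic Ly6g-high libraries, against 219.5, 224 and 213 CPM in Ly6g-low libraries. Both macrometastatic groups were far above normal lung and close to each other. The rise over normal lung was 1.99 (SE 0.040, edgeR adjusted p = 4.37e-24) in Ly6g-high and 2.07 (SE 0.040, edgeR adjusted p = 2.06e-24) in Ly6g-low neutrophils, 3.97-fold and 4.19-fold. Between the gates *Gsr* differed by 0.077 (SE 0.037), and the sign of this difference turned on log2(FPKM + 1), to -0.16.

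The other genes of cysteine supply and glutathione synthesis were followed in a list of 21, of which 19 were tested. In macrometastatic Ly6g-high over normal lung 5 were called higher and 11 lower (median log2 fold change -0.68), in Ly6g-low over normal lung 6 and 8 (-0.37), and between the gates 3 and 2 (0.11). In the same order they were 3 and 13 (-0.84), 2 and 10 (-0.70) and 0 and 2 (-0.040) on log2(FPKM + 1), and 3 and 13, 3 and 12 and 0 and 3 with total-count scaling. Over all tested genes, 26.3% were called higher and 36.6% lower, 28.6% and 40.8%, and 9.34% and 16.0% with TMM. Of all these calls, 41.8%, 41.2% and 36.9% were higher. That share was 21.8%, 14.9% and 14.2% on log2(FPKM + 1). With total-count scaling it was 20.3%, 14.2% and 13.3%. All tested genes thus also shifted to lower calls. The ectoenzyme *Ggt1*, which starts the breakdown of extracellular glutathione, had 21.1, 17.7 and 19.7 CPM in normal lung libraries, 327, 335 and 325 CPM in macrometastatic Ly6g-high libraries, against 375, 375 and 364 CPM in Ly6g-low libraries. Its log2 fold changes over normal lung were 4.08 and 4.25 (edgeR adjusted p = 3.14e-28 and 8.54e-29). The related *Ggt5* rose by 1.82 and 2.37 (edgeR adjusted p = 8.91e-21 and 2.67e-23). *Cdo1*, which commits cysteine to taurine synthesis, fell by 1.79 and 1.32 on the same scale (edgeR adjusted p = 3.75e-16 and 1.69e-13). *Gss*, which adds glycine in the last step of glutathione synthesis, was low throughout, at 5.6 ± 0.951 CPM in macrometastatic Ly6g-high, 5.23 ± 0.816 in Ly6g-low and 9.62 ± 0.986 in normal lung neutrophils (SD, n = 3), and was called lower than normal lung in both gates (-0.78 and -0.87, edgeR adjusted p = 2.85e-06 and 1.34e-06). Between the gates, the amino acid transporter *Slc38a2* was called higher in Ly6g-low (0.69, edgeR adjusted p = 6.42e-15), a call that was lost on log2(FPKM + 1) at 0.45, and the glutamine transporter *Slc1a5* was called lower (-0.66, edgeR adjusted p = 9.49e-08).

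Of 28 other glutathione-dependent enzymes, 8 were called higher and 17 lower in macrometastatic Ly6g-high over normal lung (median -0.72), 8 and 18 in Ly6g-low over normal lung (median -1.11), and between the gates 1 and 7 (median -0.27). Log2(FPKM + 1) gave 4 and 18 (-0.91), 3 and 18 (-1.24) and 0 and 8 (-0.32), and total-count scaling 5 and 18, 3 and 18 and 0 and 11. *Gpx1*, which reduces hydrogen peroxide, rose by 1.84 and 1.78 over normal lung (edgeR adjusted p = 1.30e-24 and 2.05e-24), to 654 and 630.3 CPM. The glutathione transferase *Gstm1* fell by 2.26 and 2.91 (edgeR adjusted p = 9.49e-21 and 8.82e-22), the secreted peroxidase *Gpx3* fell by 1.76 and 1.68 (edgeR adjusted p = 1.17e-21 and 4.39e-21), and *Gsto1* fell by 1.02 and 2.06 (edgeR adjusted p = 3.11e-11 and 1.11e-15), all in Ly6g-high and Ly6g-low macrometastatic neutrophils in that order. Between the gates, *Esd*, an esterase that also cleaves S-formylglutathione, was called higher in Ly6g-low (0.81, edgeR adjusted p = 5.05e-16), under the threshold on log2(FPKM + 1), and *Mgst2* was called lower (-0.68, edgeR adjusted p = 9.61e-08).

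**Figure D2:**
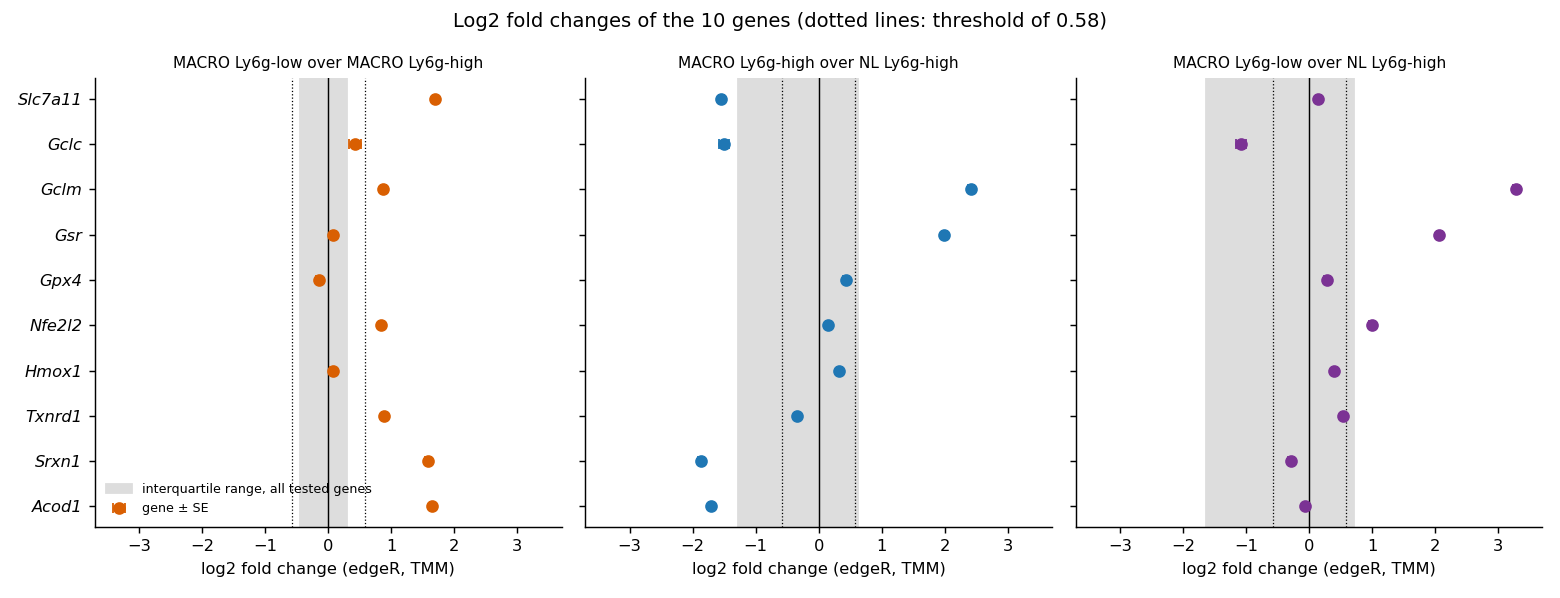
Log2 fold changes (horizontal axes, edgeR with TMM) of the 10 genes in the 3 comparisons; points are fitted values with their SE, the grey band is the interquartile range of all 14108 tested genes and dotted lines mark 0.58. *Gclm* (2.41 and 3.28) and *Gsr* (1.99 and 2.07) lay above the band in both comparisons with NL, and *Slc7a11* (1.69), *Acod1* (1.65) and *Srxn1* (1.57) were the farthest from 0 between the gates.

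*Gpx4* (NCBI Gene 625249, chromosome 10, 80047166 to 80056439, plus strand), the enzyme that holds lipid peroxidation in check, varied little. It had 82.4, 80.5 and 84.9 CPM in macrometastatic Ly6g-high libraries, 73.6, 75.6 and 73.5 CPM in Ly6g-low libraries and 61.8, 60.9 and 60.7 CPM in normal lung libraries. The groups did not overlap, but none of the differences passed the fold threshold. It was 0.43 (SE 0.042, edgeR adjusted p = 6.21e-10) and 0.28 (SE 0.044, edgeR adjusted p = 2.04e-06) over normal lung, within the interquartile range of all tested genes in both comparisons, and -0.15 (SE 0.044) between the gates. On log2(FPKM + 1) both differences from normal lung had the opposite sign, at -0.032 and -0.41. The annotation holds a *Gpx4* pseudogene, *Gpx4-ps2*, with which reads could be shared.

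Of 40 other genes tied to ferroptosis, 11 were called higher and 16 lower in macrometastatic Ly6g-high over normal lung (median log2 fold change -0.13), 12 and 18 in Ly6g-low over normal lung (-0.36) and between the gates 4 and 11 (-0.24). These splits moved further towards lower calls on log2(FPKM + 1), to 3 and 20 (-0.58), 3 and 23 (-0.67) and 1 and 11 (-0.32), and with total-count scaling, to 3 and 21, 3 and 24 and 2 and 18. Calls over all tested genes moved the same way. The ferritin heavy chain gene *Fth1*, whose product stores iron, had 3946, 3817 and 3887 CPM in macrometastatic Ly6g-high libraries, 7513, 7784 and 7724 CPM in Ly6g-low libraries and 4464, 4158 and 4219.8 CPM in normal lung libraries. It was called higher in Ly6g-low than Ly6g-high (0.98, SE 0.032, edgeR adjusted p = 1.32e-18). The iron exporter gene *Slc40a1* rose in both gates over normal lung, by 1.82 and 2.22 (edgeR adjusted p = 5.64e-24 and 9.97e-26). *Alox15*, a lipoxygenase that oxidizes polyunsaturated lipids, had 54.7, 54.7 and 54 CPM in macrometastatic Ly6g-high libraries, 6.09, 6.1 and 6.02 CPM in Ly6g-low libraries and 19, 16.5 and 18.7 CPM in normal lung libraries, and its log2 fold change between the gates was -3.16 (SE 0.081, edgeR adjusted p = 9.00e-21). Summed alveolar macrophage markers were likewise lower in Ly6g-low than in macrometastatic Ly6g-high, although highest in normal lung. Every eosinophil, basophil and mast cell gene but *Kit* also had a lower mean in Ly6g-low than in macrometastatic Ly6g-high. Against normal lung these genes differed. *Prg2* and *Ccr3* were lowest there, at 0.226 and 1.09 CPM on average, whereas *Siglecf* and *Gata2* were highest there, at 38.7 and 24.4 CPM. Whether other cells contributed to the *Alox15* difference was not tested. *Alox5* rose by 1.72 and 1.47 over normal lung (edgeR adjusted p = 4.85e-23 and 1.16e-21). *Acsl4*, which loads polyunsaturated fatty acids into phospholipid precursors, had 81.8 ± 0.113 CPM in macrometastatic Ly6g-high, 91.2 ± 4.13 CPM in Ly6g-low and 88.9 ± 5.95 CPM in normal lung (SD, n = 3) and was not called in any comparison with TMM. In Ly6g-low over normal lung it ran from -0.66 to 0.13 across 5 scalings and was called lower in 2 of them, at -0.63 on log2(FPKM + 1), and in macrometastatic Ly6g-high over normal lung it was called lower in 1, at -0.58. Its sign also turned between the gates, from -0.079 to 0.22. *Aifm2*, encoding the GPX4-independent suppressor FSP1, was called higher in macrometastatic Ly6g-high than normal lung (0.61, SE 0.064, edgeR adjusted p = 2.63e-09). That call was lost without normal lung replicate 2 and with upper-quartile normalization, total-count scaling or log2(FPKM + 1), where it was 0.19. In the other comparisons *Aifm2* was at -0.47 between the gates, past the threshold at -0.69 on log2(FPKM + 1), and at 0.14 over normal lung, the latter with the opposite sign on log2(FPKM + 1), at -0.50.

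*Nfe2l2* (NCBI Gene 18024, chromosome 2, 75675513 to 75704641, minus strand), the gene of NRF2, had 241, 247 and 243 CPM in macrometastatic Ly6g-high libraries, against 222, 222 and 215 CPM in normal lung libraries. The macrometastatic Ly6g-low libraries had 433, 436 and 440.5 CPM and stood apart above both. *Nfe2l2* rose by 0.99 (SE 0.033, edgeR adjusted p = 1.12e-19) for Ly6g-low over normal lung and was 0.84 (SE 0.033) higher than in macrometastatic Ly6g-high neutrophils. On log2(FPKM + 1) the former was 0.29 and no longer called. In macrometastatic Ly6g-high over normal lung its difference of 0.15 (SE 0.033, edgeR adjusted p = 0.000232) stayed under the threshold and was -0.31 on log2(FPKM + 1). These are transcript levels, whereas NRF2 is controlled largely through the stability of its protein.

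Of 18 regulators of NRF2, 3 were called higher and 2 lower between the gates (median 0.18), 3 and 3 in macrometastatic Ly6g-high over normal lung (-0.048) and 4 and 5 in Ly6g-low over normal lung (0.17). The even split was lost on log2(FPKM + 1), with 1 and 3 (-0.050), 1 and 7 (-0.46) and 1 and 7 (-0.50), and with total-count scaling, with 1 and 4, 1 and 8 and 0 and 8. All tested genes shifted the same way. Relative to their median, the list median was 0.22, 0.040 and 0.32 with TMM and 0.22, 0.039 and 0.32 with total-count scaling. On log2(FPKM + 1) it was 0.084, -0.14 and -0.013. *Keap1*, the adaptor that marks NRF2 for degradation, had 19.4, 21.4 and 20.9 CPM in macrometastatic Ly6g-high libraries, 12.3, 13.5 and 11.4 CPM in Ly6g-low libraries and 22.8, 18.8 and 22.4 CPM in normal lung libraries. It was called lower in Ly6g-low than in Ly6g-high (-0.73, SE 0.093, edgeR adjusted p = 2.30e-07) and normal lung (-0.78, SE 0.089, edgeR adjusted p = 1.20e-08) neutrophils and overlapped between the Ly6g-high groups. *Bach1*, a repressor at antioxidant response elements, was called higher in Ly6g-low neutrophils, at 455 ± 4.45 CPM, than in macrometastatic Ly6g-high neutrophils, at 271 ± 4.36 CPM (0.75, edgeR adjusted p = 4.33e-16), and than in normal lung neutrophils (0.70, edgeR adjusted p = 1.44e-16), calls that were both lost on log2(FPKM + 1), at 0.51 and 0.0029. Its 280 ± 5.67 CPM in normal lung overlapped those of macrometastatic Ly6g-high libraries. The small MAF proteins pair with NRF2 or BACH1 on DNA. *Maff* was called higher in Ly6g-low than Ly6g-high (0.93, edgeR adjusted p = 6.48e-15) and lower in macrometastatic Ly6g-high than normal lung (-1.23, edgeR adjusted p = 1.12e-18). *Mafg* rose over normal lung in both gates (1.07 and 1.25, edgeR adjusted p = 5.53e-19 and 2.09e-20), although in Ly6g-low its call was lost with total-count scaling, at 0.54.

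Of 36 tested NRF2 target genes outside the members, 14 were called higher and 16 lower in macrometastatic Ly6g-high over normal lung (median log2 fold change -0.17), 15 and 16 in Ly6g-low over normal lung (-0.058) and between the gates 3 and 7 (-0.28). Lower calls prevailed more on log2(FPKM + 1), with 9 and 18 (-0.58), 9 and 18 (-0.70) and 1 and 8 (-0.35), and with total-count scaling, with 9 and 19, 8 and 18 and 2 and 16, as they did over all tested genes. This list shares genes with the others, such as *Fth1*, *Esd* and *Prdx1*, so the tallies of the lists are not separate. Those called higher included enzymes of the pentose phosphate pathway, which supplies the NADPH that GSR and thioredoxin reductase use. *G6pdx* had 244, 229 and 253 CPM in normal lung libraries, 1463, 1464 and 1437 CPM in macrometastatic Ly6g-high libraries, against 1089.6, 1098 and 1082 CPM in Ly6g-low libraries, with log2 fold changes of 2.59 and 2.17 (edgeR adjusted p = 5.14e-27 and 9.56e-26). *Pgd* and *Tkt* rose by 2.05 and 2.07 in macrometastatic Ly6g-high over normal lung (edgeR adjusted p = 1.67e-24 and 7.60e-25). Those called lower included the fatty acid scavenger receptor *Cd36* (-2.71, edgeR adjusted p = 2.25e-25) and the epoxide hydrolase *Ephx1* (-2.95, edgeR adjusted p = 6.10e-19) in the same comparison. *Nqo1*, a widely used NRF2 target, was scarce, at 7.74 ± 1.08 CPM in macrometastatic Ly6g-high, 5.82 ± 0.472 CPM in Ly6g-low and 1.75 ± 0.495 CPM in normal lung neutrophils (SD, n = 3), and was called higher than normal lung in both gates (2.14 and 1.74, edgeR adjusted p = 6.81e-12 and 2.32e-09). Between the gates, catalase (*Cat*) and *Idh1* were called lower in Ly6g-low (-0.83 and -0.80, edgeR adjusted p = 6.76e-10 and 2.74e-12).

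**Figure D3:**
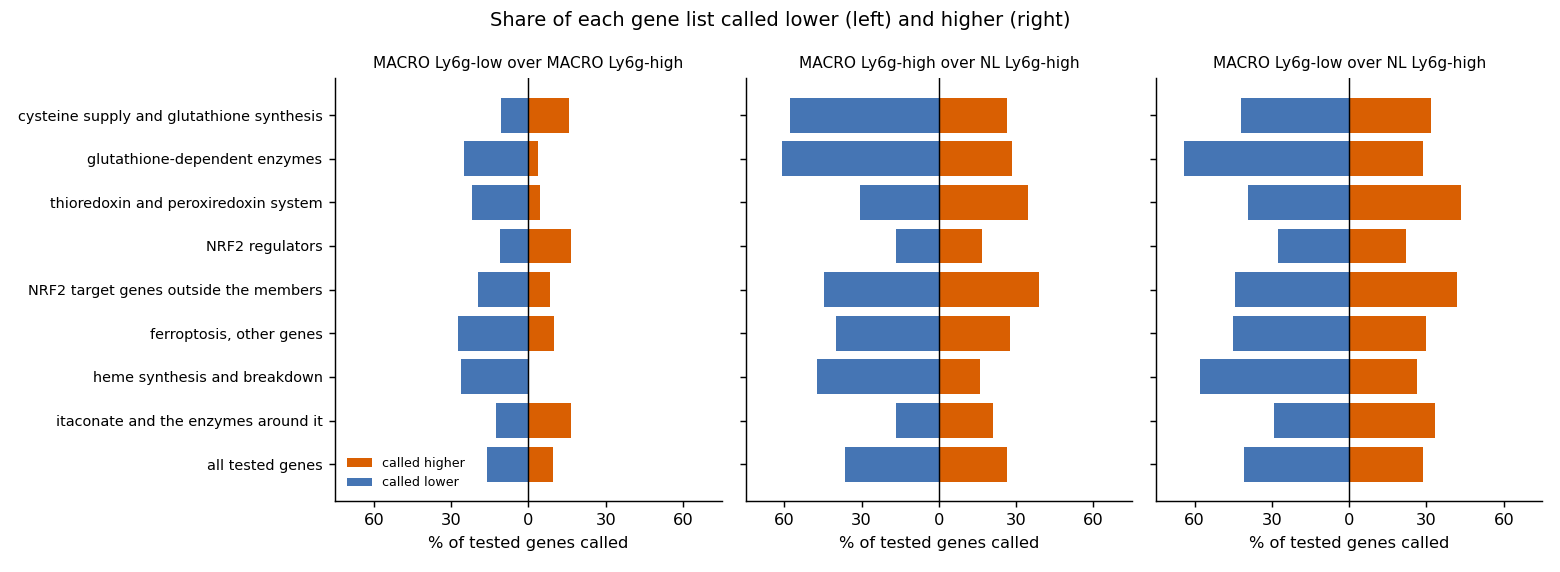
Share of the tested genes of each list called lower (blue, to the left) and higher (orange, to the right) in the 3 comparisons with TMM, as a percentage of the list, with all 14108 tested genes in the bottom row. Between the gates the NRF2 targets outside the members split 3 higher to 7 lower of 36, while over all tested genes 9.34% were called higher and 16.0% lower.

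*Txnrd1* (NCBI Gene 50493, chromosome 10, 82833951 to 82897712, plus strand) encodes cytosolic thioredoxin reductase, the NADPH-fed partner of thioredoxin. It had 250.2, 264 and 254 CPM in macrometastatic Ly6g-high libraries, 476, 467 and 469 CPM in Ly6g-low libraries and 319, 328 and 330.1 CPM in normal lung libraries. The Ly6g-low libraries were highest and the macrometastatic Ly6g-high libraries lowest with TMM. The log2 fold change was 0.88 (SE 0.034) between the gates, -0.35 (SE 0.033, edgeR adjusted p = 5.16e-10) in macrometastatic Ly6g-high over normal lung and 0.53 (SE 0.033, edgeR adjusted p = 7.20e-14) for Ly6g-low over normal lung. The differences from normal lung stayed under the threshold, and on log2(FPKM + 1) they were -0.81, past it, and -0.17, with the sign turned. *Txnrd1* overlaps *Eid3* on the same strand, so reads in that stretch could be counted for either gene. *Slc7a11*, *Gclm*, *Gsr* and *Nfe2l2* also overlap noncoding or pseudogene annotations.

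*Srxn1* (NCBI Gene 76650, chromosome 2, 152105516 to 152111376, plus strand) encodes sulfiredoxin, which repairs overoxidized peroxiredoxins. It had 40, 36.5 and 37 CPM in macrometastatic Ly6g-high libraries, 112, 113 and 114 CPM in Ly6g-low libraries and 138, 135 and 140.1 CPM in normal lung libraries. The macrometastatic Ly6g-high libraries were far below the rest. The log2 fold change was 1.57 (SE 0.047), or 2.98-fold, between the gates. *Srxn1* fell by 1.86 (SE 0.045, edgeR adjusted p = 1.50e-22) in macrometastatic Ly6g-high neutrophils from the normal lung level. In Ly6g-low over normal lung its difference was -0.29 (SE 0.040, edgeR adjusted p = 3.19e-07), under the threshold, and -0.97 on log2(FPKM + 1), past it.

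The windows of these genes are shown because both encode enzymes of the thioredoxin and peroxiredoxin system and both were higher in the Ly6g-low gate. Capitals mark the AP-1 site TGANTCA in *Srxn1* (chr2:152105402-152105505, plus strand, 122 to 19 bases before the start) and the antioxidant response element core, on the opposite strand, in *Txnrd1* (chr10:82859094-82859142, plus strand, 112 to 64 bases before the start). The *Txnrd1* window belongs to a RefSeq start inside the gene span given above, well downstream of the gene start listed there.
*Srxn1*: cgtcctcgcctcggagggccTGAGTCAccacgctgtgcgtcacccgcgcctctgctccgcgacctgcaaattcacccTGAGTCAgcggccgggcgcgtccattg
*Txnrd1*: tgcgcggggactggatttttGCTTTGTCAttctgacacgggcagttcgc
AP-1 sites were found in windows of 8.97% of genes and, among members with a window, only in *Srxn1*. The site nearer the start overlaps a match to TGAGNNNGC, the G form. *Srxn1* also held TGACNNNGC, at 29 to 37 bases counted from the start as base 1.

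Of 23 other thioredoxin and peroxiredoxin genes, 8 were called higher and 7 lower in macrometastatic Ly6g-high over normal lung (median 0.080), 10 and 9 in Ly6g-low over normal lung (0.14) and between the gates 1 and 5 (-0.034). Against normal lung the balance turned to mostly lower on log2(FPKM + 1), with 4 and 11 (-0.35) and 4 and 11 (-0.55), and with total-count scaling, with 5 and 11 and 4 and 11, while between the gates these gave 1 and 7 (-0.24) and 1 and 10. All tested genes turned towards lower calls under both scalings too. Thioredoxin itself (*Txn1*) was at 369 ± 7.41 CPM in macrometastatic Ly6g-high, 438 ± 5.75 CPM in Ly6g-low and 192 ± 2.52 CPM in normal lung (SD, n = 3). It was called higher than normal lung in both gates (0.94 and 1.19, edgeR adjusted p = 4.61e-19 and 3.13e-21), and both calls were lost on log2(FPKM + 1), at 0.48 and 0.49. *Prdx5* rose by 1.52 and 1.77 over normal lung (edgeR adjusted p = 1.29e-21 and 5.13e-23), to 1016 and 1209.7 CPM, and the methionine sulfoxide reductase *Msra* rose by 1.46 and 1.54 (edgeR adjusted p = 7.44e-21 and 2.63e-21). The peroxiredoxin *Prdx1* had 135, 148 and 137 CPM in normal lung libraries, 57.8, 54.1 and 53.7 CPM in macrometastatic Ly6g-high libraries, against 30.8, 29 and 29.8 CPM in Ly6g-low libraries. It was called lower in all 3 comparisons, at -1.34 and -2.23 from normal lung (edgeR adjusted p = 2.85e-19 and 8.82e-23) and -0.89 between the gates (edgeR adjusted p = 1.24e-12). *Sesn2*, a stress-induced sestrin, was the gene of this list called higher between the gates (0.99, edgeR adjusted p = 3.07e-15).

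*Hmox1* (NCBI Gene 15368, chromosome 8, 75093621 to 75100589, plus strand), the inducible heme oxygenase, varied little between the gates. It had 173, 180 and 166 CPM in macrometastatic Ly6g-high libraries, 182, 183 and 180 CPM in Ly6g-low libraries and 141, 134 and 138 CPM in normal lung libraries. The macrometastatic gates overlapped, with a difference of 0.072 (SE 0.038). Differences from normal lung were 0.33 (SE 0.038, edgeR adjusted p = 1.57e-08) and 0.40 (SE 0.038, edgeR adjusted p = 4.66e-10), under the threshold. On log2(FPKM + 1) all 3 differences had the opposite sign, at -0.16, -0.14 and -0.30.

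Of 19 tested genes of heme synthesis and breakdown, 3 were called higher and 9 lower in macrometastatic Ly6g-high over normal lung (median -0.28), 5 and 11 in Ly6g-low over normal lung (-0.94) and between the gates 0 and 5 (-0.27). On log2(FPKM + 1) the counts were 1 and 9 (-0.56), 1 and 12 (-1.16) and 0 and 5 (-0.30), and with total-count scaling 1 and 11, 1 and 13 and 0 and 9. *Alas1*, the first enzyme of heme synthesis, rose by 1.11 and 1.42 over normal lung (edgeR adjusted p = 2.16e-19 and 9.87e-22). *Alad*, the enzyme of the next step, fell by 2.39 and 2.96 (edgeR adjusted p = 2.26e-15 and 5.47e-16). *Blvra*, the biliverdin reductase that acts after heme oxygenase, fell by 2.70 in Ly6g-low from the normal lung level (edgeR adjusted p = 5.34e-18), to 3.5 CPM. *Hmox2*, the constitutive heme oxygenase, was called higher only in Ly6g-low over normal lung (0.70, edgeR adjusted p = 9.94e-13), a call lost on log2(FPKM + 1), at 0.024, and its sign turned with total-count scaling. The heme transporter gene *Flvcr2* was nearly absent from Ly6g-low libraries, at 0.325, 0.151 and 0.152 CPM from 2 to 4 counts, beside 5.44 ± 0.796 CPM in macrometastatic Ly6g-high and 30.4 ± 1.81 CPM in normal lung neutrophils (SD, n = 3).

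*Acod1* (NCBI Gene 16365, chromosome 14, 103046977 to 103056573, plus strand), the itaconate-producing decarboxylase, had the highest FPKM of the members in every group. It had 748, 747 and 737 CPM in macrometastatic Ly6g-high libraries, 2335, 2330.6 and 2319.6 CPM in Ly6g-low libraries and 2472, 2409 and 2399 CPM in normal lung libraries. The macrometastatic Ly6g-high libraries were far below the other 6. The log2 fold change was 1.65 (SE 0.030), or 3.13-fold, between the gates. *Acod1* fell by 1.71 (SE 0.030, edgeR adjusted p = 4.49e-25) in macrometastatic Ly6g-high neutrophils from the normal lung level. In Ly6g-low over normal lung it differed by -0.060 (SE 0.029, edgeR adjusted p = 0.0602), a difference that was -0.76 on log2(FPKM + 1) and passed the threshold there, and 0.030 with DESeq2's size factors.

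Of 24 genes around itaconate, from the citrate cycle to inflammatory and regulatory genes, 4 were called higher and 3 lower between the gates (median -0.22), 5 and 4 in macrometastatic Ly6g-high over normal lung (0.12) and 8 and 7 in Ly6g-low over normal lung (0.040). Calls turned mostly to lower on log2(FPKM + 1), with 3 and 5 (-0.37), 1 and 9 (-0.28) and 0 and 14 (-0.61), and with total-count scaling, with 3 and 9 (-0.45), 1 and 10 (-0.34) and 0 and 14 (-0.66). The same turn was seen over all tested genes. Called higher between the gates were *Il1b* (1.26, edgeR adjusted p = 2.30e-21), *Nlrp3* (1.26, edgeR adjusted p = 2.23e-20) and *Nfkbiz* (0.95, edgeR adjusted p = 4.50e-19). Called lower were the citrate cycle genes *Fh1*, *Aco1* and *Idh3a* (-1.24, -0.87 and -0.83), which had means of 10.5 to 15.3 CPM in macrometastatic Ly6g-high neutrophils, with edgeR adjusted p from 9.83e-09 for *Fh1* and 1.99e-08 for *Aco1* to 1.21e-06 for *Idh3a*. In macrometastatic Ly6g-high over normal lung, *Nlrp3* and *Atf3* fell by 1.24 and 1.53 (edgeR adjusted p = 1.64e-21 and 5.18e-23).

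On FPKM, which allows genes to be set against each other, *Acod1* led in every group, with 278 ± 1.71 in macrometastatic Ly6g-high, 738 ± 2.95 in Ly6g-low and 1250.5 ± 15.1 in normal lung (SD, n = 3). In macrometastatic Ly6g-high neutrophils, *Hmox1* (107 ± 4.31) and *Gpx4* (103 ± 2.71) followed with overlapping libraries, then *Nfe2l2* (94.4), *Gsr* (75.1) and *Txnrd1* (72.2), of which the last pair overlapped, *Gclm* (49.5), *Slc7a11* (34.2), *Srxn1* (13) and *Gclc* (3.38). In Ly6g-low neutrophils the order was *Nfe2l2* (144 ± 1.25), *Txnrd1* (112 ± 1.27), *Hmox1* (95.8 ± 0.871) and *Slc7a11* (93.9 ± 3.67), *Gpx4* (79.4) and *Gclm* (76.9), *Gsr* (67.2), *Srxn1* (32.8) and *Gclc* (3.82), with overlaps of *Hmox1* with *Slc7a11* and of *Gpx4* with *Gclm*. In normal lung neutrophils *Slc7a11* (138 ± 8.93) came next after *Acod1*, followed by *Txnrd1* (127), *Hmox1* (118), *Nfe2l2* (118) and *Gpx4* (106), then *Srxn1* (65.2), *Gsr* (26.1), *Gclc* (13.1) and *Gclm* (12.8). There *Hmox1* overlapped *Nfe2l2*, and *Gclc* overlapped *Gclm*.

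A ratio of FPKM within a library does not depend on how libraries are scaled to each other. The following 4 ratios were picked after the values were seen and are given as a description. *Gclc* to *Gclm* was 0.954, 1.13 and 1.01 in normal lung libraries, 0.0674, 0.071 and 0.0665 in macrometastatic Ly6g-high libraries and 0.0543, 0.0436 and 0.0509 in Ly6g-low libraries. Transcripts of the catalytic and modifier subunits were thus near parity in normal lung, and modifier transcripts were in large excess in metastatic lung. *Gsr* to *Txnrd1*, the reductases of the glutathione and thioredoxin systems, was 0.207, 0.2 and 0.211 in normal lung, 1.08, 0.995 and 1.05 in macrometastatic Ly6g-high and 0.593, 0.616 and 0.585 in Ly6g-low libraries. *Slc7a11* to *Gclm* had means of 10.8 ± 0.788, 0.691 ± 0.0151 and 1.22 ± 0.0777 in the same order of groups. *Gpx4* to *Slc7a11* had means of 0.769 ± 0.0463, 3.02 ± 0.0819 and 0.846 ± 0.0437 (SD, n = 3). For the first 3 ratios no group overlapped another, and for the last the libraries of Ly6g-low (0.806 to 0.893) and normal lung (0.717 to 0.806) came close without overlapping.

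**Figure D4:**
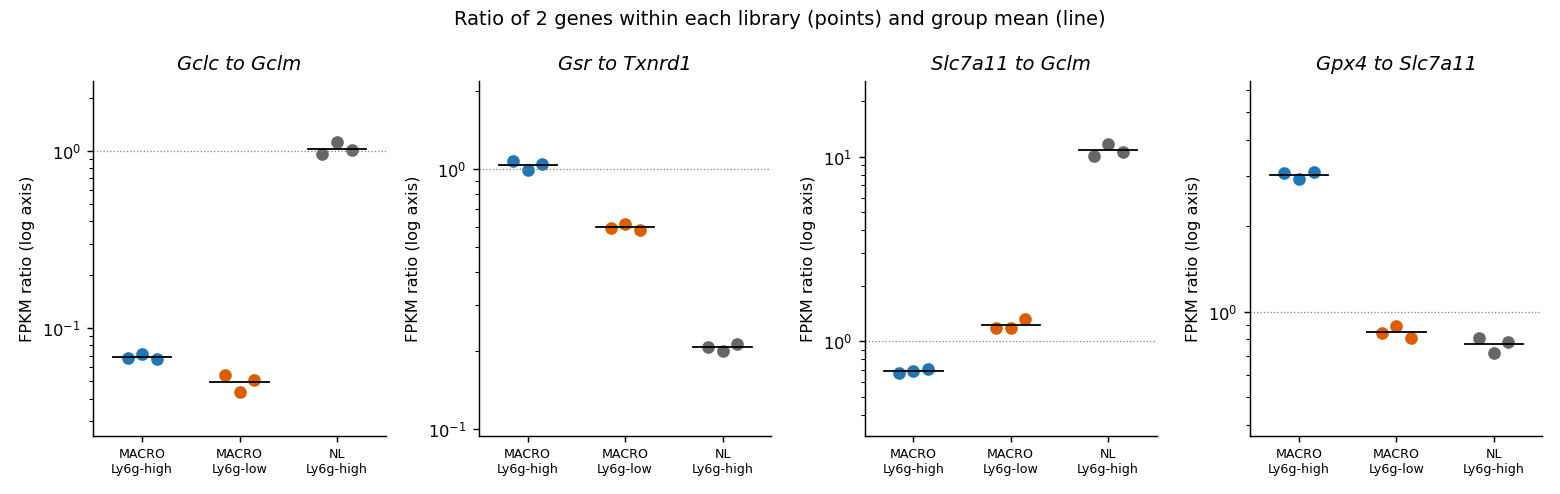
Ratio of the FPKM of 2 genes within each library (vertical log axes); points are libraries, lines the mean of 3 and the dotted line a ratio of 1, with macrometastatic (MACRO) Ly6g-high in blue, MACRO Ly6g-low in orange and normal lung (NL) in grey. *Gclc* to *Gclm* averaged 1.03 in NL, 0.0683 in MACRO Ly6g-high and 0.0496 in MACRO Ly6g-low libraries.

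The profile of *Acod1* across the 9 libraries was similar to those of *Slc7a11* and of *Srxn1*, while *Srxn1* was not among the genes nearest to *Slc7a11*. Likeness was measured as the root mean square difference of mean-centred log2 CPM, over 7397 genes with a mean of at least 10 CPM. The gene nearest to *Slc7a11* was *Acod1* (0.103), followed by *Crem* (0.126) and *F3* (0.129). The nearest to *Acod1* were *Crem* (0.0906), *Srxn1* (0.102) and *Slc7a11* (0.103). The nearest to *Hmox1* were *Creb3* (0.0381), *Hivep1* (0.0427) and *Eif4g3* (0.0447), genes that likewise differed little between groups. The points are 9 libraries that share 3 groups.

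The comparisons with normal lung depended on how libraries were scaled. On log2(FPKM + 1) with limma the median of all genes moved from its TMM value by -0.093 between the gates, -0.24 in macrometastatic Ly6g-high over normal lung and -0.33 in Ly6g-low over normal lung. Calls in the higher direction were then 14.2%, 21.8% and 14.9% of all calls, in place of 36.9%, 41.8% and 41.2%. With total-count scaling, chosen after the data were seen, the median moved by -0.24, -0.46 and -0.70, and higher calls made up 13.3%, 20.3% and 14.2%. Upper-quartile normalization moved the median by -0.19 in both comparisons with normal lung. Under each of the 5 scalings, *Gclm* and *Gsr* were called higher and *Gclc* lower than normal lung in both gates, and *Slc7a11*, *Srxn1* and *Acod1* were called lower in macrometastatic Ly6g-high than normal lung. Between the gates *Slc7a11*, *Gclm*, *Nfe2l2*, *Txnrd1*, *Srxn1* and *Acod1* met the call rule as higher in Ly6g-low under all 5. *Slc7a11* was chosen partly from these libraries, so its calls are a description and no support for its difference. Relative to the median of all genes *Slc7a11* in Ly6g-low over normal lung was at 0.30 with TMM and -0.060 on log2(FPKM + 1), *Nfe2l2* at 1.15 and 0.78, *Txnrd1* at 0.69 and 0.32, *Hmox1* at 0.55 and 0.19 and *Gpx4* at 0.44 and 0.079.

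**Figure D5:**
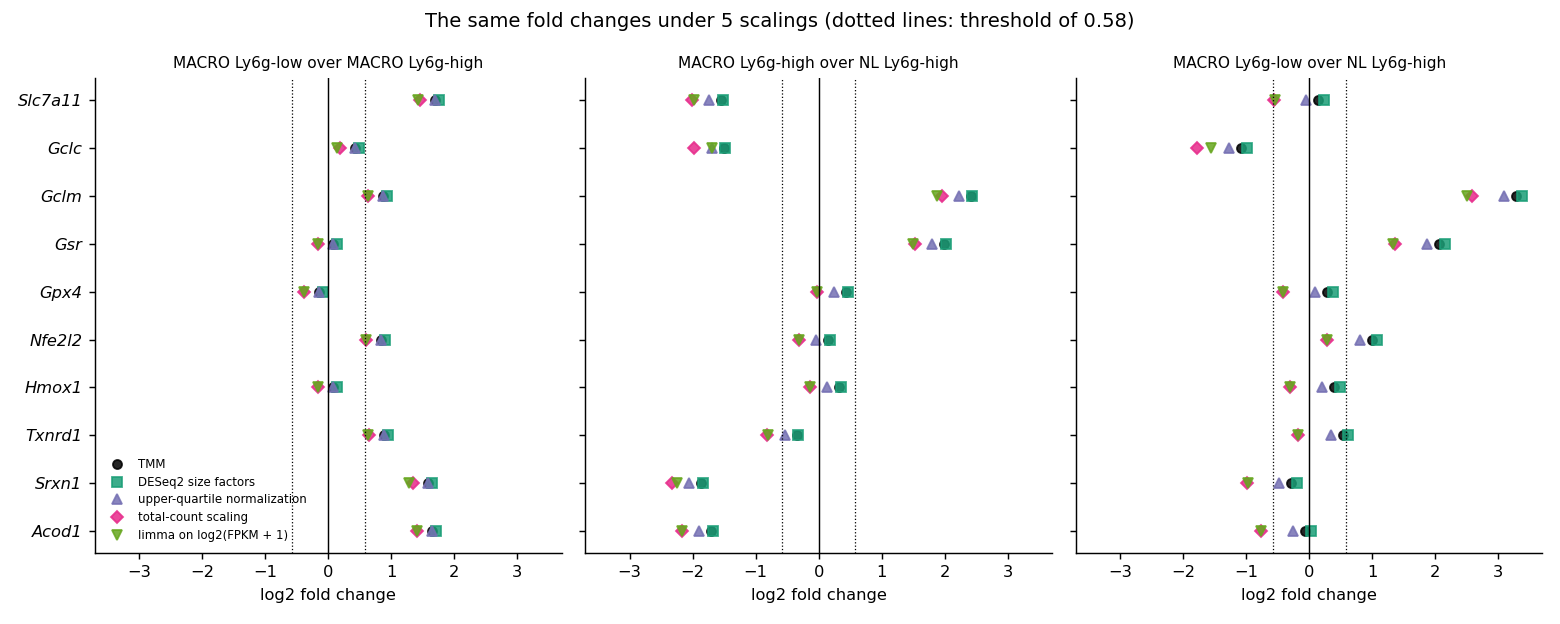
Log2 fold changes (horizontal axes) of the 10 genes under 5 scalings, edgeR with TMM, DESeq2's size factors, upper-quartile or total-count scaling, and limma on log2(FPKM + 1); dotted lines mark 0.58. In Ly6g-low over NL the values of *Slc7a11* ran from -0.56 to 0.24 across these scalings and those of *Gclm* from 2.50 to 3.37.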

How the data were processed

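Bulk RNA-seq of sorted neutrophils gave 9 libraries, grouped by title and treatment label; the description field of the NL libraries names only the Ly6g-high group. Per the labels, RNA was taken with TRIzol and made into poly(A), strand-specific libraries, and the submitters' processing notes name mm10. The aligner, the counting program and whether counting used strand are not given in the sources used here. The deposited estimated counts (37.9% whole numbers) were made by the authors per gene without normalization and rounded here, and the deposited FPKM values were scaled by the authors for transcript length and fragments. All per-sample columns were used; 3739 of 22064 genes were blank.

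Counts were fitted in R 4.3.3 with edgeR 4.0.16 (TMM, filterByExpr by group, a robust quasi-likelihood test, with the 9 libraries fitted together), with Benjamini-Hochberg adjustment over 14108 genes. Genes were called at adjusted p ≤ 0.05 with log2 fold changes beyond 0.58 either way. The study's methods name DESeq2 with the same fold limit and a P value that they do not call adjusted. The SE is the fold change divided by the square root of F. With 3 against 3, an exact permutation test cannot go below p = 0.1. It was computed only for the FPKM ratios within libraries, and no result rests on it. The common biological coefficient of variation was 0.0346. The fit was tested on simulated counts in which few genes changed, about evenly up and down, in the Ly6g-low group alone. Such counts cannot test the scaling between the groups of these data. The members, the gene lists and the tests were chosen with earlier results of these data known. A gene may be in more than 1 list, and the members were left out of the lists. Members were all named; from each list up to 3 genes called higher and 3 lower per comparison were eligible, by fold change, where libraries of the groups did not overlap and the higher group reached 10 CPM, plus fixed partners (*Slc3a2*, *Gss*, *Keap1*, *Bach1*, *Nqo1*, *Acsl4*, *Aifm2*, *Hmox2* and *Txn1*). Positions are from the GENCODE annotation of GRCm38. Promoters are from a RefSeq table, and no protein sequence was used here. Alternatives were DESeq2 1.42.0 or its size factors, upper-quartile and total-count scaling, other filters and thresholds, an unadjusted p, limma 3.58.1 on log2 FPKM (pseudocount 1, 0.1, or 1 after dropping genes without 3 libraries at FPKM 1), the 6 libraries of a comparison alone, a replicate block, and leaving out each library. Total-count scaling and most alternatives for the gene lists were chosen after seeing the data.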

Additional observations from a re-analysis of the deposited data

How the results depend on the processing

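All member fold changes of called genes kept their direction and call when each library was left out, with 6, 6 and 4 members called in Ly6g-low over Ly6g-high, Ly6g-high over normal lung and Ly6g-low over normal lung each time. *Slc7a11* was chosen partly from these libraries, so its kept calls are a description and no support for its difference. Over all genes, leaving out a library gave 3394 to 3611, 8864 to 9063 and 9789 to 9976 calls. Replicate numbers did not pair libraries, with correlations of -0.068 to 0.077 between same-numbered deviations, and a replicate block gave 6, 6 and 4 members and 3531, 8844 and 9769 genes called, with no member call changed. With no fold threshold 10 members were called in Ly6g-high and 9 in Ly6g-low over normal lung, beside 11924 and 12237 of all 14108 genes, and between the gates 7892 genes and 136 list genes. With a threshold of 1 there were 3 members, 1304 genes and 15 list genes between the gates, and 75 list genes in Ly6g-high over normal lung. Limma called 2240 genes between the gates on log2(FPKM + 1), and 2220 with FPKM of at least 1 in 3 libraries.

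Signs turned for the following log2 fold changes, given for total-count scaling, for log2(FPKM + 1) with or without the FPKM filter, and for log2(FPKM + 0.1). Between the gates these were -0.16, -0.16 and -0.16 for both *Gsr* and *Hmox1*. In Ly6g-high over normal lung they were -0.031, -0.032 and -0.032 for *Gpx4*, -0.32, -0.31 and -0.32 for *Nfe2l2* and -0.14, -0.14 and -0.14 for *Hmox1*. In Ly6g-low over normal lung they were -0.56, -0.55 and -0.55 for *Slc7a11*, -0.42, -0.41 and -0.41 for *Gpx4*, -0.30, -0.30 and -0.30 for *Hmox1* and -0.17, -0.17 and -0.17 for *Txnrd1*. Upper-quartile normalization and a minimum of 10 counts in every library also turned *Nfe2l2* in Ly6g-high (-0.044 and -0.026) and *Slc7a11* in Ly6g-low over normal lung (-0.044 and -0.037), and DESeq2 or its size factors turned *Acod1* in Ly6g-low over normal lung (0.030). *Nfe2l2* in Ly6g-low over normal lung lost its call at 0.29 with total-count scaling and on log2 FPKM, and *Txnrd1* there passed it with DESeq2, at 0.62. The cause was not tested. At 184 counts or more per library, depth limits *Gclc* most.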
